A study of Rattus norvegicus with 2 samples.

Results

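Small nucleolar RNAs (snoRNAs) of the C/D and H/ACA classes were compared between an injured and a sham-operated rat retina. The members were chosen by their symbol, SNORD or SNORA followed by a digit, and selected on the measured values themselves, with an FPKM above 0 in at least 1 of the 2 libraries. Of 32662 genes in the table, 1590 carry such a symbol, and 218 of these had a value above 0. They comprise 76 of 323 C/D genes and 142 of 1267 H/ACA genes, each counted by its gene identifier since symbols repeat. Since these values chose the members, their presence is a description and no test was made on it.

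The study produced 2 rRNA-depleted RNA-seq libraries from retinas of Long-Evans rats aged 2 months, 1 library per condition. CTRL came from a retina after a sham procedure, and IR12 from a retina taken 12 hours after reperfusion that followed ischemia, a transient stop of blood flow to the eye. Each library came from a single retina. With 1 library per condition no difference has a replicate check, and injury, animal and library preparation cannot be told apart.

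SnoRNAs are short stable RNAs of the nucleolus that guide the modification of ribosomal RNA by base pairing. C/D snoRNAs direct methylation of ribose through a complex around the methyltransferase fibrillarin, and H/ACA snoRNAs direct the conversion of uridine to pseudouridine through a complex around dyskerin. In mammals most of them are cut from the introns of host genes, many of which encode ribosomal proteins and translation factors, and a few snoRNAs are needed for cleavage of the rRNA precursor instead of its modification.

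Many known snoRNA host genes of mammals belong to the group whose mRNAs begin with an oligopyrimidine tract, and the start regions of 5 genes that share a listed locus with the snoRNAs described below are shown for this reason. Each window of 30 bases runs from 15 bases before to 15 bases after the gene start in RefSeq (build GRCr8), on the strand of the gene and 5′ to 3′, and capitals mark the longest unbroken run of C and T where it has at least 7 bases.
Rps3, chr1:163195762-163195791, minus strand: TTCCTTTCagcggcgcgcggcagcaagatg
Rpl13a, chr1:104748899-104748928, minus strand: CCTCTTCCTTTCCTaggcggctgccgaaga
Eif4a2, chr11:91275309-91275338, minus strand: gTCTTTTCagtcgggcgctgagtgggtttt
Eif4a1, chr10:54888588-54888617, minus strand: ggcgggcactccgccctagattctaaggat
Nop56, chr3:137930164-137930193, plus strand: ggcctccgcagtctggttccgcgcgccaga
Of 120 genes that share a listed locus with a member, 91 were matched by symbol to a RefSeq window, and 35 of these, 38.5%, held such a run. It was present in 12 of 14 ribosomal protein genes, *Rpsa* not counted among them, and in 29.9% of the other 77. These 77 include *Rpsa*, with a run of 7 bases. Of all 33468 windows, 17.9% held such a run. Runs of A and G of the same length, the same tract on the opposite strand, were present in 9.89% of the 91 windows and in 20.0% of all windows. The marked runs of *Rps3*, *Rpl13a* and *Eif4a2* lie before the annotated start, so these windows do not show that the mRNAs begin with the tract. *Eif4a1* and *Nop56* had none, which says only that these letters are not in this window.

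Both classes were lower in IR12. Over the 76 C/D snoRNAs the median FPKM was 256 in CTRL and 57.7 in IR12, and the median log2 ratio of (FPKM + 1), IR12 over CTRL, was -1.82. Over the 142 H/ACA snoRNAs the median FPKM was 42.6 in CTRL and 25.9 in IR12, and the median log2 ratio was -1.15. The difference of the class medians, H/ACA minus C/D, was 0.68. It depended on the members taken, at 1.20 over those that share no listed locus with another gene and 0.30 over symbols with 1 gene. The 19100 genes with a value above 0 in either library had a median of 0.02. FPKM is a level per length on the authors' scale of each library, so these are relative levels, and fewer cells of a type and less RNA per cell cannot be told apart.

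Of the C/D snoRNAs, 52 were at least 2-fold lower in IR12, beside 4.36% of all genes, and 12 were at least 2-fold higher, beside 4.67% of all genes. Of the H/ACA snoRNAs, 81 were at least 2-fold lower and 19 at least 2-fold higher. Any lower value was found for 81.6% of C/D and 82.4% of H/ACA snoRNAs, compared with 46.7% of all genes. All 12 C/D and all 19 H/ACA snoRNAs on the higher side were listed at 0 in CTRL, and 20 of the 52 and 26 of the 81 on the lower side were listed at 0 in IR12. Of the snoRNAs with values above 0 in both libraries, 32 of 44 C/D and 55 of 97 H/ACA snoRNAs were at least 2-fold lower as deposited, and none was 2-fold higher. With both libraries rescaled to the same sum of FPKM, which adds 0.65 to each log2 ratio apart from the pseudocount and brought the median of all genes to 0.38, the class medians were -1.18 and -0.51. On that scale 42 C/D and 53 H/ACA snoRNAs were at least 2-fold lower, beside 2.28% of all genes, and 12 and 22 were at least 2-fold higher, beside 14.8%. Of those above 0 in both libraries, 22 C/D and 27 H/ACA snoRNAs were at least 2-fold lower on that scale, and 3, all H/ACA, were 2-fold higher. Small RNAs, these snoRNAs included, held 68.1% of the summed FPKM in CTRL and 46.3% in IR12, so the scale of equal sums depends on their own level. Genes other than small RNAs summed to 448030 in CTRL and 480376 in IR12. Rescaled to the same sum over those genes only, the class medians were -1.92 and -1.25.

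**Figure D1:**
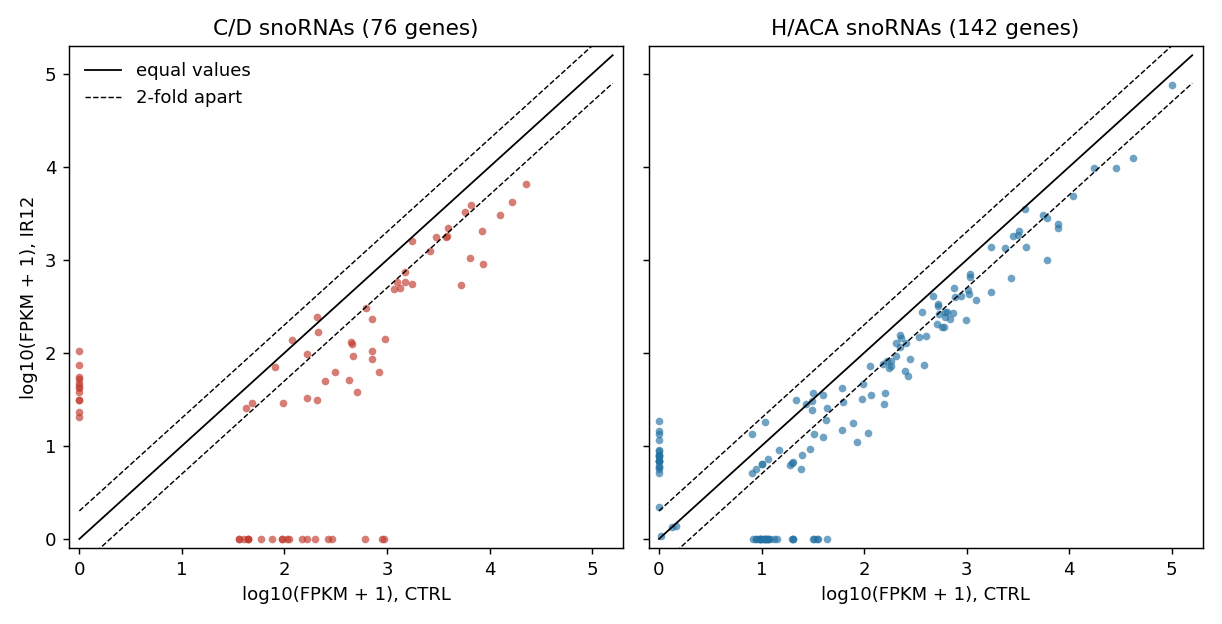
FPKM of each C/D snoRNA (left, 76 genes) and H/ACA snoRNA (right, 142 genes) in CTRL (x axis) and IR12 (y axis), both as log10(FPKM + 1). Points lie mostly below the line of equal values, with 62 C/D and 117 H/ACA snoRNAs lower in IR12, and those on an axis are listed at 0 in 1 library.

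Summed over the class, the FPKM of C/D snoRNAs came to 133183 in CTRL and 42173 in IR12, a ratio of 0.317. H/ACA snoRNAs had 279398 in CTRL and 148071 in IR12, a ratio of 0.530 as deposited. C/D snoRNAs took 9.50% of the summed FPKM of all genes in CTRL and 4.71% in IR12, and H/ACA snoRNAs took 19.9% and 16.5%. These sums were concentrated in few genes. The 6 most abundant held 56.5% of the C/D sum and 73.8% of the H/ACA sum in CTRL. SNORA48 at the *Eif4a1* locus alone held 35.7% of the H/ACA sum in CTRL and 50.9% in IR12, and without it the ratio of the H/ACA sums was 0.405.

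For most short genes with a locus of their own the values lie in steps of single reads, so that the reads behind an FPKM could be recovered. For 370 of 383 genes of 60 to 350 bp with a locus of their own, both values were whole reads within 0.001 of a read plus 8 in 1e6 of its reads, under a normal distribution of fragment lengths (mean 200, SD 80) with a shortest fragment of 35 bases, values that were found to fit the table and are not given by the authors. All 48 snoRNAs with a locus of their own, 24 of each class, were among them. A read was worth 1.71 times as much FPKM in CTRL as in IR12 at any length. This is the scale of the table and not the ratio of sequenced reads, which differed less between the libraries, so that ratios of reads scaled by sequencing depth would be higher in both classes. The length mattered far more, and it differs between the classes with some overlap. Over all 195 C/D and 807 H/ACA genes with a locus of their own, members or not, the listed medians were 79 bp (60 to 129 bp) and 129 bp (60 to 214 bp). The members among them had medians of 83 bp (64 to 126 bp) and 132.5 bp (120 to 214 bp). In CTRL 1 read gave 70.4 FPKM at 79 bp and 10.6 FPKM at 129 bp. In IR12 these values were 41.2 and 6.20. A larger FPKM of a C/D snoRNA therefore does not show more reads than that of an H/ACA snoRNA.

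**Figure D2:**
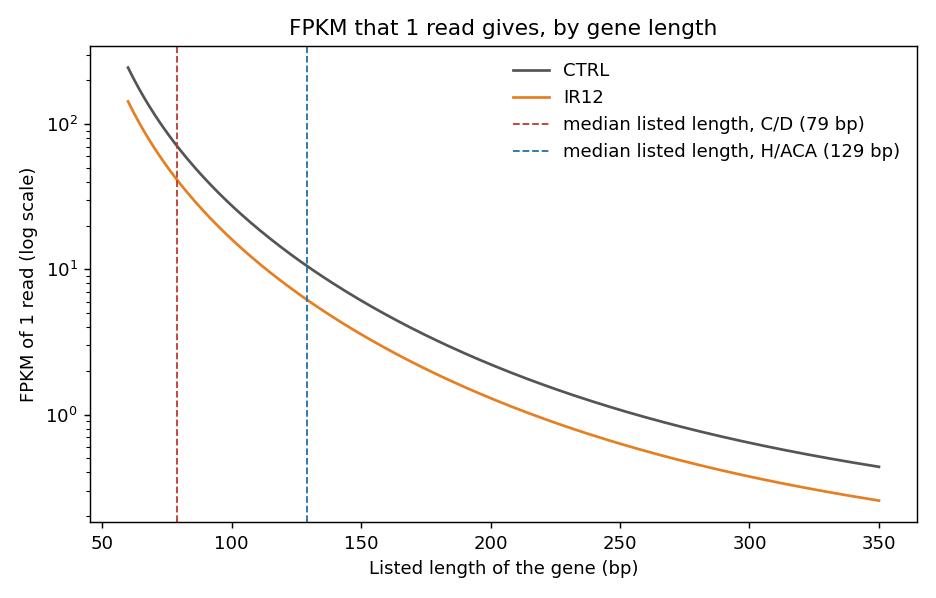
FPKM that 1 read gives (y axis, log scale) by the listed length of the gene in bp (x axis), in CTRL and IR12. Dashed lines mark the median listed length of C/D (79 bp) and H/ACA genes (129 bp), where 1 read in CTRL gives 70.4 and 10.6 FPKM.

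For the snoRNAs that share a listed locus with another gene, whose own length is not listed, reads were given where exactly 1 length from 60 to 220 bp made both values whole. This held for 138 of 170. With the length hidden, 44 of the 48 snoRNAs with their own locus gave exactly 1 length, and it was the listed one in all 44. Reads were thus available for 64 C/D and 122 H/ACA snoRNAs. Many rested on very few: 28 C/D and 50 H/ACA snoRNAs had 1 to 3 reads in both libraries together. At the edge of the rule, the C/D snoRNAs of lowest mean FPKM included a SNORD113 gene, a SNORD116 gene and SNORD127, with 19.7, 22.3 and 30.5 FPKM in IR12, each from 1 read, and 0 in CTRL. The H/ACA snoRNA of lowest mean was a SNORA43 gene, with 0.0394 in CTRL and 0.0638 in IR12, far below the FPKM of 1 read at the length of the locus it shares, so no reads are given for it. Just outside the rule lie 1372 snoRNA genes that are listed at 0 in both libraries.

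The snoRNAs listed at 0 in 1 library were thin on both sides. The 10 C/D snoRNAs listed at 0 in CTRL whose reads were recovered had 1 read each in IR12, and the 17 such H/ACA snoRNAs had at most 3. Of those listed at 0 in IR12, 15 of 18 C/D and 23 of 24 H/ACA snoRNAs had at most 3 reads in CTRL. No exact ratio can be given for either side. With a 0 set to 3 reads, and without a ratio where the other library had 3 reads or fewer, the medians were -1.66 over 47 C/D and -1.12 over 98 H/ACA snoRNAs, a step that drops the higher side by construction. Among the snoRNAs with at least 10 reads, which include none listed at 0 in CTRL, 21 of 25 C/D and 37 of 58 H/ACA snoRNAs were at least 2-fold lower and none was 2-fold higher, with medians of -1.62 and -1.17. The difference of the class medians was then 0.45. A single C/D and a single H/ACA snoRNA of this group had any higher value in IR12 as deposited, and 2 and 10 on the scale of equal sums, where 12 C/D and 15 H/ACA snoRNAs were at least 2-fold lower.

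**Figure D3:**
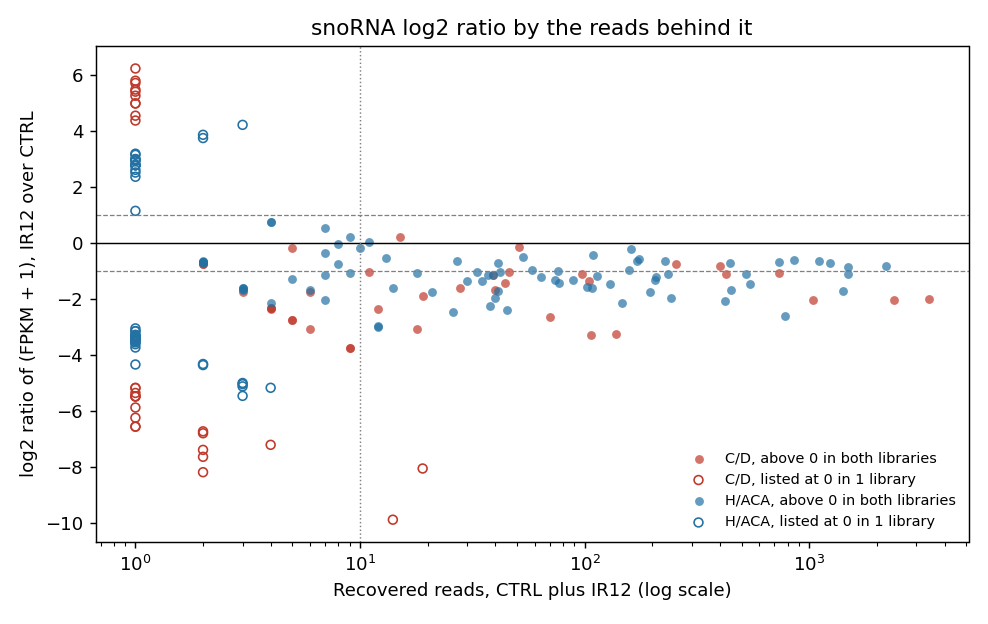
log2 ratio of (FPKM + 1), IR12 over CTRL (y axis), by the recovered reads of both libraries together (x axis, log scale) for 64 C/D and 122 H/ACA snoRNAs. Open points are listed at 0 in 1 library; to the right of the dotted line at 10 reads no snoRNA is above the dashed line of 2-fold higher, and on the scale of equal sums none is either.

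Reads summed over the 24 C/D snoRNAs with their own locus were 1162 in CTRL and 553 in IR12. In FPKM units, that is divided by 1.71, the ratio was 0.279 with a 95% interval of 0.251 to 0.309. For the 24 H/ACA snoRNAs with their own locus the reads were 1627 in CTRL and 1603 in IR12, a ratio of 0.577 with an interval of 0.538 to 0.618. The intervals are exact Clopper-Pearson intervals of the split of reads between these 2 libraries, cover counting error only and do not overlap between the classes. Without the most read gene of each class, SNORD22 and a copy of SNORA73, the ratios were 0.337 and 0.556. Without the other SNORA73 copy as well, 495 and 390 reads were left for H/ACA, a ratio of 0.461, so that the distance between the classes was smaller. Over all 64 and 122 snoRNAs with reads they were 0.288 and 0.463.

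By abundance, the distance between the classes was not even. Among snoRNAs with a mean FPKM of the 2 libraries of at least 1000, the median log2 ratio was -1.23 over 18 C/D and -1.12 over 19 H/ACA snoRNAs, a difference of 0.11. All 18 and all 19 were lower in IR12 as deposited, 13 and 10 of them at least 2-fold (72.2% and 52.6%). Of all 81 genes in this range, these snoRNAs included, 65 were lower and 40.7% at least 2-fold lower. From 100 to 1000, the medians were -2.34 over 26 C/D and -1.15 over 39 H/ACA snoRNAs, a difference of 1.19. In that range 5 of the C/D and 0 of the H/ACA snoRNAs were at 0 in IR12. From 10 to 100 they were -2.32 over 31 and -1.61 over 35, and in this range 15 of the C/D snoRNAs were at 0 in IR12 and 11 at 0 in CTRL. Under 10 there was 1 C/D snoRNA beside 49 of H/ACA. Over all genes the medians of the upper 3 ranges were -0.82, 0.03 and 0.06, from the most abundant down. In the uppermost range 37 of the 81 genes are these snoRNAs. A snoRNA can reach a range on its CTRL value alone, as SNORD47 did with 8684 FPKM in CTRL and 913 in IR12. Lower values among members chosen by mean FPKM, here and below, are thus a description and no test was made on them.

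The ratio was also set beside the length, since the classes differ in it. Among C/D snoRNAs with at least 10 reads, the median log2 ratio was -1.62 over 17 genes of 60 to 99 bp, -1.23 over 4 of 100 to 124 bp and -2.01 over 4 of 125 to 149 bp. Among H/ACA snoRNAs it was -1.27 over 50 genes of 125 to 149 bp and -0.76 over 8 of 150 to 220 bp, of which 5 are copies of SNORA73 and the other 3 had a median of -1.11. At 125 to 149 bp, the lengths the classes share, the medians thus differed by 0.74, with 4 C/D genes on one side. These are SNORD10, SNORD22 and the SNORD15 genes, which share 1 listed locus. Only the length of SNORD22 is listed, and the others were found from the read steps. Across the 83 genes, which share the same 2 libraries and are not replicates, length and log2 ratio had a Spearman correlation of 0.33 and a Pearson correlation of 0.27. Within C/D these were -0.05 and -0.01, and within H/ACA 0.40 and 0.29, or 0.39 and 0.29 over the 53 genes other than SNORA73. The C/D genes include 2 listed at 0 in IR12, whose log2 ratios of -9.87 and -8.04 are set by the pseudocount and enter these values. Other small RNAs with their own locus had medians of -0.98 over 2 genes of 60 to 99 bp, -1.83 over 7 of 100 to 124 bp, -1.51 over 5 of 125 to 149 bp, -0.96 over 13 of 150 to 220 bp and -0.47 over 15 of 221 to 350 bp. Of these last 15, 13 are copies of 7SK. The part of fragment length in these ratios was not tested.

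**Figure D4:**
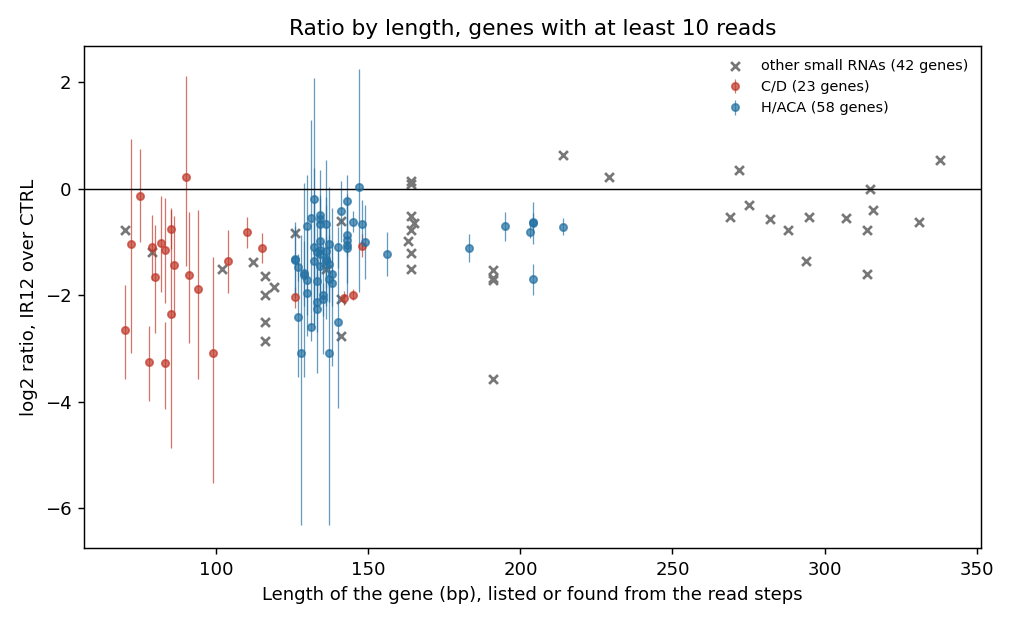
log2 ratio, IR12 over CTRL (y axis), by gene length in bp (x axis) for 23 C/D and 58 H/ACA snoRNAs with at least 10 reads and a value above 0 in both libraries, with bars for the 95% counting interval, and for 42 other small RNAs (crosses, no interval). Most snoRNAs lie below 0 at every length, and of the 8 H/ACA snoRNAs of 150 bp and more, 5 are copies of SNORA73.

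Among C/D snoRNAs, SNORD94 had the highest mean level, at 22546 FPKM in CTRL and 6608 in IR12 (log2 ratio -1.77). It guides methylation of a spliceosomal RNA and shares the listed locus of *Ptcd3* (rn6, chromosome 4, 99795656 to 99822992). SNORD15, in the locus of *Rps3*, had 16436 in CTRL and 4143 in IR12, from 2381 and 1025 reads. A second SNORD15 gene at the same locus had 2602 in CTRL and 1238 in IR12, from 406 and 330 reads. In FPKM units the ratios of these copies were 0.252 (95% interval 0.234 to 0.271) and 0.476 (0.410 to 0.552), intervals that do not overlap although the copies share 1 listed locus. SNORD10, which shares the locus of *Eif4a1*, had 12542 in CTRL and 3035 in IR12.

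SNORD22 and SNORD47 have listed loci of their own, and their reads need no assumption on length. SNORD22 (rn6, chromosome 1, 224923832 to 224923957) stood at 8441 FPKM in CTRL and 2062 in IR12, from 731 and 305 reads. SNORD47 (chromosome 13, 78855388 to 78855465) had 8684 in CTRL and 913 in IR12, from 117 and 21 reads, a ratio of 0.105 in FPKM units with an interval of 0.063 to 0.168. SNORD60 stood as low, with 91 reads in CTRL and 16 in IR12 and a ratio of 0.103 (0.056 to 0.176). SNORD33, in the locus of *Rpl13a*, was at the other end of the 6 most abundant C/D snoRNAs, with 6625 in CTRL and 3909 in IR12, from 127 and 128 reads and with a ratio of 0.590 (0.458 to 0.760).

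Of the 38 C/D snoRNAs above the class median of mean FPKM, 1 had a higher value in IR12. This was SNORD88, at 208 FPKM in CTRL and 243 in IR12, from 5 and 10 reads and with an interval of its ratio from 0.365 to 4.37. SNORD66 had 1752 in CTRL and 1590 in IR12, from 20 and 31 reads, and its ratio of 0.908 had an interval from 0.501 to 1.68, so that no difference was detectable at this depth. A gene named SNORD83 had 211 in CTRL and 165 in IR12, with no reads given. On the scale of equal sums SNORD66 and this SNORD83 gene were higher in IR12, by 0.51 and 0.29. A second SNORD83 gene at the same locus, below the class median, had 263 FPKM in CTRL and 0 in IR12. It had 19 reads in CTRL, which allows a ratio of up to 0.125. At the lower end of the 38, a copy of SNORD45 had 14 reads in CTRL and none in IR12, which allows a ratio of up to 0.177. SNORD61 had 885 FPKM and SNORD100 had 613 FPKM in CTRL, and both are listed at 0 in IR12. SNORD65 and a second copy of SNORD45 had 8 reads in CTRL and 1 in IR12 each.

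Among H/ACA snoRNAs, SNORA48 in the locus of *Eif4a1* had the highest level of all members, at 99849 FPKM in CTRL and 75314 in IR12. Its log2 ratio was -0.41 as deposited and 0.24 on the scale of equal sums, so its direction depends on the scale. SNORA63, in the locus of *Eif4a2*, had 41469.5 in CTRL and 12348 in IR12. SNORA68 had 28797 in CTRL and 9813 in IR12. Both were lower on either scale, with log2 ratios of -1.75 and -1.55 as deposited. SNORA14, SNORA49 and SNORA8 complete the 6 most abundant, with log2 ratios of -0.85, -1.15 and -1.70.

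None of the 71 H/ACA snoRNAs above the class median of mean FPKM had a higher value in IR12 as deposited. The nearest to equality was a SNORA74 gene, with 3700.3 FPKM in CTRL and 3545 in IR12 as deposited, higher by 0.59 on the scale of equal sums. SNORA51 had 4 reads in CTRL and 6 in IR12, and a SNORA48 gene in the locus of *Nap1l1* had 65 and 95, a ratio of 0.856 (0.618 to 1.19). A SNORA17 gene had 1712 FPKM in CTRL and 1384 in IR12, and these 4 were all higher in IR12 on the scale of equal sums. The lowest ratios belonged to a SNORA21 gene and to SNORA75, both with 10 reads in CTRL and 2 in IR12. SNORA15 had far more reads, 610 in CTRL and 172 in IR12, a ratio of 0.165 (0.139 to 0.196). SNORA4 had 20 and 6 reads, and SNORA33 had 34 and 11.

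Copies, taken here from a shared symbol and not from sequence, can make single genes uncertain. The authors' handling of reads that match several places is not given in the sources used here. Among all symbols listed, 97 C/D symbols stand for 323 genes and 70 H/ACA symbols for 1267. SNORA17 alone stands for 675, 7 of them above 0. Symbols with 1 gene in the table were rare among H/ACA genes: 9 of the 142 members had such a symbol, compared with 23 of the 76 C/D members. Over these the medians were -1.77 for C/D and -1.47 for H/ACA, a difference of 0.30.

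Of the snoRNAs listed here as acting in cleavage of the rRNA precursor, SNORD14, SNORD22 and SNORA73 are in this table, while U3 and U8 carry symbols outside the rule. The list may not be complete. SNORD14, in the locus of *Hspa8*, had 1344 FPKM in CTRL and 495 in IR12, from 27 and 17 reads. SNORA73 had 6 genes above 0, and the most abundant, in the locus of *Rpsa*, had 2346 in CTRL and 1343 in IR12, from 1112 and 1087 reads. The copies with their own locus had 525 and 579 reads, and 607 and 634 reads, in CTRL and IR12, with ratios of 0.646 and 0.612 in FPKM units and log2 ratios of 0.02 and -0.06 on the scale of equal sums. A further one, in the locus of *Grm8*, stood apart with 292 and 154 reads and a ratio of 0.309 (0.252 to 0.377), below the interval of the one at *Rpsa* (0.526 to 0.623). For comparison, U3 summed to 4784 in CTRL and 2435 in IR12, and U8 had 5554 and 1945.

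SnoRNAs with symbols of the imprinted clusters, which lie in tandem copies and are known from neurons, were barely detected. They were counted by symbol, and not all of these genes lie together. Of 98 genes with symbols of the SNORD115 and SNORD116 cluster, 3 had a value above 0, with 4 reads in CTRL and 2 in IR12 in all. Of 57 genes named SNORD113, 10 had a value above 0, with 7 reads in CTRL and 5 in IR12. No difference between the libraries was detectable at this depth for either group.

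SnoRNAs of single host genes could be followed as groups. Of the snoRNAs known by symbol from the introns of *Gas5*, 3 genes had a value above 0, summing to 8905 FPKM in CTRL and 1048 in IR12, nearly all of it SNORD47. SNORD77 of this group had 117 in CTRL and 135 in IR12, and SNORD79 had 2 reads in CTRL and none in IR12. A SNORD24 gene lies close to them on chromosome 13 without belonging to the group by symbol, and had 1509 FPKM in CTRL and 742 in IR12, from 25 and 21 reads. Of those known from *Snhg1*, SNORD22 held most of the sum of 9155 in CTRL and 2218 in IR12. The others were SNORD29, with 4 reads in CTRL and 1 in IR12, and SNORD26, with 1 read in IR12. The 6 genes known from *Rpl13a*, which are copies of SNORD33, SNORD34 and SNORD35, summed to 10083 in CTRL and 5057 in IR12 and had 180 and 160 reads. *Gas5* and *Snhg1* are not in the table by symbol, and *Snhg11*, the only one of 21 noncoding hosts looked for that is in it, had 39.4 in CTRL and 15.5 in IR12.

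The genes that share a listed locus with a snoRNA stood differently from it. A single named gene other than a small RNA shared the locus of 147 members, 120 genes in all; the strand is not listed, and how reads of overlapping genes were divided is not given in the sources used here. The genes had a median log2 ratio of 0.25, and 84 of the 120 were higher in IR12 as deposited, beside 53.3% of all genes, 13 of them at least 2-fold, and 1 was at least 2-fold lower, beside 4.67% and 4.36% of all genes. In 127 of the 147 pairs the ratio of the snoRNA was below that of the gene, with a median difference of -2.03 as deposited and -2.02 on the scale of equal sums. The difference within a pair does not depend on how the libraries are scaled, apart from the pseudocount. Its median was -2.57 over 46 C/D pairs and -1.85 over 101 H/ACA pairs. In the 30 pairs whose snoRNA had a mean FPKM of at least 1000, the snoRNA was below the gene in all 30, and the gene was higher in IR12 than in CTRL as deposited for 20 of 24 genes.

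**Figure D5:**
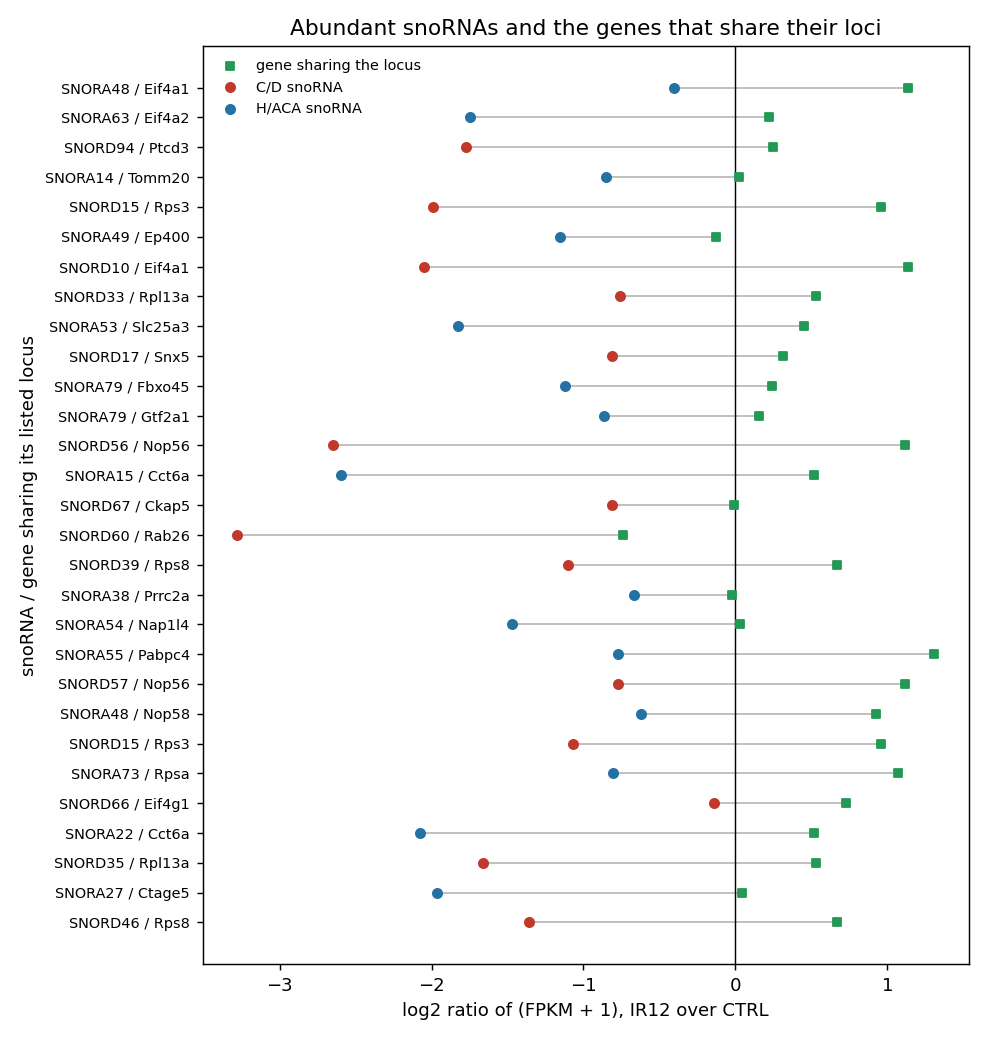
log2 ratio of (FPKM + 1), IR12 over CTRL (x axis), of 29 snoRNAs with a mean FPKM of at least 1000 (circles) and of the gene that shares the listed locus (squares), 1 pair per line from the most abundant snoRNA at the top. In all 29 pairs shown the snoRNA lies to the left of its gene, as deposited and after scaling.

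*Eif4a1*, which encodes an RNA helicase of translation initiation, had 195 FPKM in CTRL and 430.2 in IR12, while SNORD10 at its locus had a log2 ratio of -2.05 and SNORA48 one of -0.41 as deposited. *Rps3*, a ribosomal protein gene, had 281 in CTRL and 547 in IR12, beside the ratios of -1.99 and -1.07 of the SNORD15 genes. *Rpl13a* had 335 in CTRL and 483 in IR12. With *Rpsa* not counted, 17 pairs joined a snoRNA with a mean FPKM of at least 100 to a ribosomal protein gene. In all 17 the gene was higher and the snoRNA lower as deposited. *Rpsa* itself was also higher, at 200 in CTRL and 421 in IR12, and the snoRNAs at its locus were lower. A mean of at least 100 can be reached on the CTRL value alone, as by SNORD100 with 613 in CTRL and 0 in IR12, so these directions are a description. *Nop56*, which encodes a core C/D protein and shares its locus with SNORD56 and SNORD57, had 52.3 in CTRL and 114 in IR12. SNORD56 had 6505 in CTRL and 1039 in IR12, and SNORD57 had 3030 in CTRL and 1774 in IR12. *Ptcd3*, *Eif4a2* and *Tomm20*, which share loci with SNORD94, SNORA63 and SNORA14, had log2 ratios of 0.25, 0.22 and 0.02, and *Ep400*, with SNORA49, had -0.13 as deposited and 0.50 on the scale of equal sums.

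Genes for the proteins that bind and assemble snoRNAs mostly had higher RNA levels in IR12. Of 20 symbols looked for, 19 are in the table, the other being an older symbol of *Snu13*. Of these, 18 had a value above 0 and all 18 were higher in IR12 on both scales, beside 53.3% of all genes as deposited and 79.7% on the scale of equal sums. At least 2-fold higher as deposited were 3, beside 4.67% of all genes, and the median log2 ratio was 0.63. On the scale of equal sums this median was 1.21 and most of the 18 were at least 2-fold higher, beside 14.8% of all genes. Of the core C/D proteins, *Fbl*, the methyltransferase, had 8.64 FPKM in CTRL and 22.8 in IR12. *Nop58*, a scaffold of the complex, had 49.0 and 94.0, and *Snu13*, which binds the kink-turn of the RNA, had 17.2 and 32.8. Of the core H/ACA proteins, *Dkc1*, the pseudouridine synthase, had 0.729 in CTRL and 1.56 in IR12, *Gar1* had 3.11 and 6.52, and *Nop10* had 91.2 and 156. *Nhp2*, the remaining core H/ACA gene, is listed at 0 in both libraries.

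The 11 assembly factors had a median log2 ratio of 0.36. The largest was that of *Ruvbl1*, an ATPase of the assembly complex, with 14.4 in CTRL and 33.5 in IR12, and its partner *Ruvbl2* had 8.44 and 14.2. *Naf1*, *Shq1*, *Nufip1*, *Znhit3*, *Znhit6*, *Pih1d1*, *Rpap3*, *Nolc1* and *Coil* had log2 ratios from 0.02 (*Rpap3*, no higher than the median of all genes and below 0 when the ratios are centred) to 0.81 (*Nolc1*) as deposited.

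Genes of rRNA synthesis and processing stood on the same side. Of 27 symbols, 26 are in the table, 25 had a value above 0 and all 25 were higher in IR12 on both scales, again beside 53.3% and 79.7% of all genes. At least 2-fold higher as deposited were 5, beside 4.67% of all genes, and the median was 0.79. The 5 were *Polr1e*, a subunit of RNA polymerase I (4.53 in CTRL, 13.5 in IR12), *Npm1*, nucleophosmin (253 and 639), *Nop2* (7.11 and 17.9), *Rrp9* (5.37 and 14.1) and *Bop1* (4.16 and 11.7). *Ebna1bp2* is listed at 0 in both libraries. On the scale of equal sums the median of the 25 was 1.36 and most of them were at least 2-fold higher, beside 14.8% of all genes. The 101 ribosomal protein genes with a value above 0 had a median of 0.71 as deposited, with 23 at least 2-fold higher and none 2-fold lower. With equal sums their median was 1.31 and 68 were at least 2-fold higher, beside 14.8% of all genes.

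Other small RNAs were compared to place the snoRNAs. Spliceosomal U RNAs, 125 genes, had a median log2 ratio of -1.63 as deposited and summed to 103760 FPKM in CTRL and 40522 in IR12. The 3 Y RNA genes summed to 337690 in CTRL and 123256 in IR12. Small Cajal body RNAs, which guide modification of spliceosomal RNAs with the same boxes, had a median of -0.47 over 24 genes as deposited and 0.15 on the scale of equal sums. The 106 genes of 7SK had a median of -0.45 as deposited and -0.02 on the scale of equal sums, and the 19 genes of signal recognition particle RNA had -0.04 and 0.48. The RNA of RNase MRP, a longer RNA of the nucleolus that cleaves the rRNA precursor, had 2 genes that summed to 2966 in CTRL and 3294 in IR12. A lower level in IR12 as deposited was therefore found in several classes of small RNA and was not particular to snoRNAs.

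Markers of retinal cell types were read beside these values. All 4 Müller glia markers were at least 2-fold lower in IR12 as deposited and summed to 1036 FPKM in CTRL and 201 in IR12, *Glul* being the most abundant. The 6 leukocyte markers were all at least 2-fold higher and summed to 11.2 in CTRL and 124 in IR12, with *Lyz2* the most abundant and *S100a8* at 0 in CTRL. The 6 lens markers summed to 1207 in CTRL and 135 in IR12, nearly all of it *Cryaa*, so lens RNA was more abundant in the CTRL library. Cone and amacrine markers summed to 350 and 175 in CTRL and to 233 and 121 in IR12, and ganglion cell markers to 137 and 134. These sums were all higher in IR12 on the scale of equal sums, while the medians of the cone and amacrine lists were -0.04 and -0.16 on it. Pigment epithelium markers summed to 73.6 and 92.6, the higher sum coming from *Ttr* while the other 3 were lower in IR12. The 2 blood markers in the table summed to 20.8 and 35.3, with *Hbb* higher and *Alas2* lower in IR12. The part of these cells in the snoRNA values was not tested.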

How the data were processed

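Gene expression was measured by RNA-seq in 2 rat retina libraries, CTRL and IR12. The authors deposited gene-level FPKM, 1 column per library, with Ensembl identifiers and rn6 loci. Their processing notes name STAR 2.5.2b and Cuffdiff 2.2.0, with no role given for either, and the annotation release behind the FPKM table is not stated, although the authors' software instructions name an Ensembl annotation of rn6. The labels name 150 bp single-end reads, which the authors shortened before use, and a total RNA kit in one place and an mRNA kit in another, both with rRNA removal. From these values log2 ratios of (FPKM + 1) were computed, which draws the ratios of low genes toward 0, and 2-fold on this scale was counted. Read totals are not in the table. The scale of a read was taken from the read steps, sought after the values were seen, and is not the ratio of sequenced reads. No length was taken where over 0.5 lengths would be whole by the tolerance alone. No molecular identifiers are named, so a read may repeat a molecule already counted.

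The members and lists were chosen with earlier results of these data known. Named by rule were, in each class, the 6 snoRNAs of highest mean FPKM and, above the class median of it, the 5 highest and 5 lowest log2 ratios. Also named were the genes of the snoRNA protein list, rRNA genes past 2-fold and family members above 0. Genes sharing a locus with a named snoRNA were to be named too, and only those of the most abundant are. SNORD24, SNORD56, SNORD60, the second SNORD83 gene, SNORD127, SNORA43, *Ebna1bp2*, U3, U8 and RNase MRP RNA were chosen for naming once their values had been seen. The steps by length, reads, copies and start regions were also added then. Genes with clone names were not taken as sharing a locus. No test was made, since each condition has 1 library. Steps were tested on simulated data. Retinal marker lists were *Arr3*, *Opn1sw*, *Opn1mw*, *Gnat2* (cone); *Gad1*, *Slc6a9*, *Tfap2a* (amacrine); *Rbpms*, *Pou4f1*, *Thy1*, *Sncg* (ganglion); *Rlbp1*, *Glul*, *Slc1a3*, *Aqp4* (Müller glia); *Ptprc*, *Lyz2*, *Cd14*, *S100a8*, *S100a9*, *Itgam* (leukocyte); *Cryaa*, *Lim2*, *Mip*, *Birc7*, *Grifin*, *Lgsn* (lens); *Rpe65*, *Tyr*, *Best1*, *Ttr* (pigment epithelium); *Hba1*, *Hbb*, *Alas2* (blood). Rod and bipolar marker lists were also read and are not reported, and the plot of snoRNAs beside the genes at their loci leaves out 1 pair. Alternatives were the pseudocount, scaling, centring, low values, copies, shared loci and recovered reads. The scripts ran under Python 3.11.15 with matplotlib 3.10.9 for plots, scipy 1.17.1 for intervals, and numpy 2.4.6 with pandas 2.3.3 for the rest.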

Additional observations from a re-analysis of the deposited data

How the results depend on the processing

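Of 84 alternatives over 12 results, 45 kept the value and 39 moved it, by over 0.1 on the log2 scale, which includes ratios of sums, or, for counts, over 1.5 times. None reversed a direction. With equal sums of FPKM the C/D and H/ACA medians were -1.18 and -0.51, the ratios of sums 0.496 and 0.830, H/ACA snoRNAs 2-fold lower 53, and the protein and rRNA list medians 1.21 and 1.36. With pseudocount 0.1 the protein list median was 0.76. With only members above 0 in both libraries the C/D median was -1.64, the difference of class medians 0.53, C/D lower 32 and higher 0, and H/ACA higher 0. With symbols of 1 gene the H/ACA median was -1.47, the difference 0.30, the H/ACA sum ratio 0.452, C/D higher 4 and lower 15, and H/ACA higher 0 and lower 7. With no shared locus the H/ACA median was -0.70, the difference 1.20, C/D higher 6 and lower 16, and H/ACA higher 4 and lower 11. A mean FPKM of at least 5 left 4 H/ACA higher. Without SNORA48 the H/ACA sum ratio was 0.405.

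The next alternatives were added after seeing the data. With at least 10 reads the C/D median was -1.62, the difference 0.45, C/D higher 0 and lower 21, and H/ACA higher 0 and lower 37. Reads in FPKM units gave sum ratios of 0.288 and 0.463. Equal sums over genes other than small RNAs gave 0.295 and 0.494, and a C/D median of -1.92. Smaller counts follow from fewer genes by construction, and the cause of the other moves was not tested.

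No paired analysis was possible because each condition has 1 library. Leaving out a replicate was not possible either. FPKM is relative, so amounts per retina are not known. How reads that match several copies, or overlapping genes, were divided is not given in the sources used here. Reads of short RNAs rest on a fragment length model that was fitted, and RNA size selection was not measured.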
